A study of Mus musculus with 21 samples.

Results

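The stretch described here is the first 25 Mb of mouse chromosome 9, taken as every region listed on that chromosome with a start below 25 Mb on the build mm9 in the 4 deposited tables of differences in methylated DNA. It held 504 of the 49307 listed regions, namely 232 at 3 weeks, 44 at 8 weeks and 124 at 11 weeks for Tg197 against wild type (WT), and 104 for TNF-treated against untreated WT cells. The stretch was selected on the measured Tg197 values at 3 and at 11 weeks, whose listed changes coincide in it, so the values of both these ages are given below as a description, counts of regions passing limma included, and nothing is supported with them. The values of the other tables did not enter the choice of the stretch and were tested. Every table lists only regions that the authors had found different in the same libraries. A limma p below is therefore not independent of that listing, and the share of the whole table that passed is given for comparison.

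The samples were 21 libraries of DNA enriched for methylation from synovial fibroblasts, the connective tissue cells that line joints, kept in culture to passages 4 to 5. They fall into 7 groups of 3 libraries, namely Tg197 mice aged 3 weeks, Tg197 mice aged 8 weeks, Tg197 mice aged 11 weeks, WT mice aged 8 weeks whose cells were given TNF, and WT mice aged 3, 8 and 11 weeks. All mice had the strain background CBA x C57BL/6J, and Tg197 is a mouse line made with a transgene for human TNF that becomes arthritic. The labels give neither the dose nor the duration of TNF and do not say whether replicates came from separate animals or cultures, so the spread between libraries may be technical.

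In mammals a methyl group is added mostly to cytosines that stand before a guanine (CG sites), and most of these sites are methylated outside the CG-rich starts of genes. Capture with a methyl-CpG-binding protein counts DNA fragments that carry methylated CG sites, so a value depends on the number of such sites in a fragment, on their methylation and on the number of DNA copies present. The stretch holds long gene-poor tracts, the genes of many matrix metalloproteinases and of inflammatory caspases, and a gene-dense block with Tyk2, a Janus kinase used by interferon receptors, and Dnmt1, the enzyme that copies methylation at DNA replication. Values below are normalized reads per region, a region is called gained or lost where the mean was higher or lower in Tg197 or TNF-treated cells, and folds are differences of mean log2(value + 1). A region that a table does not list has no value in it.

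The promoters of 3 genes with 1 RefSeq start each are shown because listed regions were annotated on or just behind a start. They are RefSeq windows on GRCm38.p6 from 250 bases before to 50 bases after the start, 5′ to 3′ on the strand of the gene, with CG sites in capitals, and were matched by symbol without converting coordinates between builds. The window of Fat3, an atypical cadherin gene, is chr9:16502005-16502304 on the minus strand. The window of 4930433N12Rik, a non-coding RNA gene, is chr9:3199764-3200063 on the minus strand, and that of Zfp872, a zinc finger gene, is chr9:22187916-22188215 on the plus strand.
Fat3: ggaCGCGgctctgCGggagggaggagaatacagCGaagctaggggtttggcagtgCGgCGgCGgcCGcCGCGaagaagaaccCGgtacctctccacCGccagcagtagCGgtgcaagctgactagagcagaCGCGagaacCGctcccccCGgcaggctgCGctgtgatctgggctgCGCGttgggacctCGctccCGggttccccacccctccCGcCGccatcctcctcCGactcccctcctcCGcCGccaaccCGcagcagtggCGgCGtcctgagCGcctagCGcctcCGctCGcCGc
4930433N12Rik: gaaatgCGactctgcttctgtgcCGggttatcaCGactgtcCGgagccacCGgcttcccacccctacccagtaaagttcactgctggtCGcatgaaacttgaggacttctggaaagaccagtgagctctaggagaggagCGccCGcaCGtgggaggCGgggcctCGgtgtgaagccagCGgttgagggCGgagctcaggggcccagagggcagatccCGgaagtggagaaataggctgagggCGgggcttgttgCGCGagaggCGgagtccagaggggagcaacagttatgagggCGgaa
Zfp872: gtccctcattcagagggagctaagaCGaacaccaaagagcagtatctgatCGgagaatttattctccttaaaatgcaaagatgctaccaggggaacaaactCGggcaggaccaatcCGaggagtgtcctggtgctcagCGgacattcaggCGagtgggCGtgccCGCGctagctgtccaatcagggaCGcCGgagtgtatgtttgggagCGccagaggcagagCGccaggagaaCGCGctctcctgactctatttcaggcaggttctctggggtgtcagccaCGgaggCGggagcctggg
The Fat3 window held 35 CG sites, that of 4930433N12Rik 19 and that of Zfp872 17, against a median of 7 over 32851 RefSeq promoters of 300 bases, of which 94.6% held at least 1 CG. By annotated distance the Fat3 region lay behind a start, but this may not be the start of the printed window. The region began at 16181501 on mm9 and the window at 16502005 on GRCm38. This gap is wider than that between 21992201 and 22187916 at Zfp872. By distance from the start, 188 bases of the 4930433N12Rik window lay in the region lost at 11 weeks. The whole Zfp872 window lay in a region gained at 8 weeks.

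Recovered reads summed over all listed regions numbered 2230884 in the smallest and 2875554 in the largest library of the 3-week table. The smallest and largest sums were 695108 and 1143699 at 8 weeks, 385155 and 544797 at 11 weeks, and 1285306 and 1858694 in the TNF table. In the TNF-treated group, library 2 repeated every value of library 1, so both were counted as 1 library and the group has n = 2. Some libraries stood apart. Relative to the WT mean, listed X chromosome regions had median log2 values of 1.14, -0.10 and 0.74 in the 3 Tg197 libraries at 8 weeks, and of 0.50, -0.48 and -0.21 in the 3 WT libraries at 11 weeks. At 3 weeks, all 29 listed Y chromosome regions were lost in Tg197. The part of these differences in the values of chromosome 9 was not tested.

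The regions listed at 3 and at 11 weeks overlapped in the stretch. Of the 232 regions at 3 weeks, 69 (29.7%) overlapped one at 11 weeks by at least 1 bp, and of the 124 regions at 11 weeks, 74 (59.7%) overlapped one at 3 weeks. On the rest of the autosomes the shares were 1.86% (229 regions) at 3 weeks and 3.27% (228 regions) at 11 weeks. Of all stretches of 25 Mb on autosomes, the one with the next highest number was chromosome 9 from 25 to 50 Mb, with 10 regions, and the median was 1 at 3 weeks. These counts restate what the stretch was chosen for and are given with no test.

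The overlapping regions moved the same way at both ages in 74 of 76 pairs, 57 of them lost and 17 gained in Tg197. On the rest of the autosomes 187 of 230 pairs did so. The 2 pairs that went opposite ways were gained at 11 weeks and had log2 folds of -0.06 and -0.12 at 3 weeks, where the groups overlapped in both. One lay outside genes and the other at the promoter of Zglp1, which encodes a zinc finger protein of germ cells. The plot of log2 folds at both ages shows the 2 clouds of losses and gains near the diagonal. The median absolute log2 fold of the overlapping regions was 0.98 at 3 weeks and 1.10 at 11 weeks, and the median difference between the ages within a pair was 0.22.

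**Figure D1:**
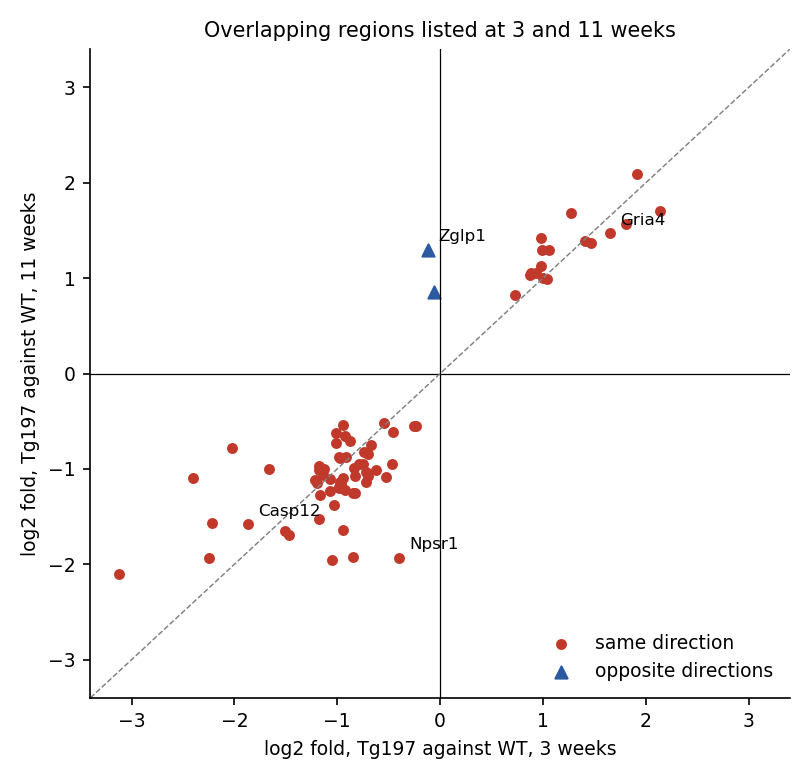
Log2 fold of Tg197 against WT at 3 weeks (horizontal) and at 11 weeks (vertical) for the 76 pairs of overlapping regions in the stretch, with the dashed line marking equal folds. Red points are the 74 pairs with the same direction and blue triangles the 2 pairs with opposite directions, and 1 pair each of Casp12, Gria4, Npsr1 and Zglp1 is named.

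Losses prevailed in both lists. At 3 weeks 61 regions were gained and 171 lost (26.3% gained, against 43.4% in the whole table), and at 11 weeks 45 were gained and 79 lost (36.3%, against 54.2%). A log2 fold of at least 1 in either direction was reached by 72 regions at 3 weeks, where 23.6% of the whole table did so, and by 81 at 11 weeks, where 50.9% did. The limma test (adjusted p under 0.05 over the table) was passed by 213 of the 232 regions at 3 weeks, against 85% of the table, 59 of them gained and 154 lost, against 40.3% and 44.7%. It was passed by 117 of the 124 regions at 11 weeks, against 77.9%, 44 of them gained and 73 lost, against 49.7% and 28.2%, though by 0 when Tg197 library 1 or 3 or WT library 2 was left out, with between 97 and 111 at an unadjusted p under 0.05 in limma. The groups did not overlap in 218 regions at 3 weeks and in 121 at 11 weeks, against 86.1% and 83.7%. Nothing is read from these counts, because both comparisons were used in the choice. For 53 of the 232 regions at 3 weeks the authors' p was more than 10 times below the one that read counting alone allows (exact binomial on the recovered reads). Of these, 50 were lost and their median absolute log2 fold was 0.21, while 2 were among the overlapping regions. The same held for 2 of the 44 regions at 8 weeks and 0 of the 124 at 11 weeks. With TNF the authors' p was below this bound in 29 of the 104. Of these 29, 12 were lost, and their median absolute log2 fold was 1.39. The bound with TNF left out the repeated treated library, which the authors' p may include. The count of 29 therefore cannot be set against those of the other comparisons.

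The overlapping regions were not spread evenly. Cut into blocks of 2.5 Mb, 19 of the 69 lay from 2.5 to 5 Mb, 14 from 5 to 7.5 Mb, 12 from 15 to 17.5 Mb, 8 from 20 to 22.5 Mb and 15 from 22.5 to 25 Mb. None lay between 7.5 and 15 Mb, although 37 regions were listed there at 3 weeks and 9 at 11 weeks. Past the boundary 4 overlapping regions lay from 25 to 27.5 Mb and none from 27.5 to 32.5 Mb. From 40 to 42.5 Mb the 11-week table listed 66 regions, none of which overlapped one at 3 weeks. By feature, 47 of the 69 lay outside genes, 20 in gene bodies and 2 at promoters.

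**Figure D2:**
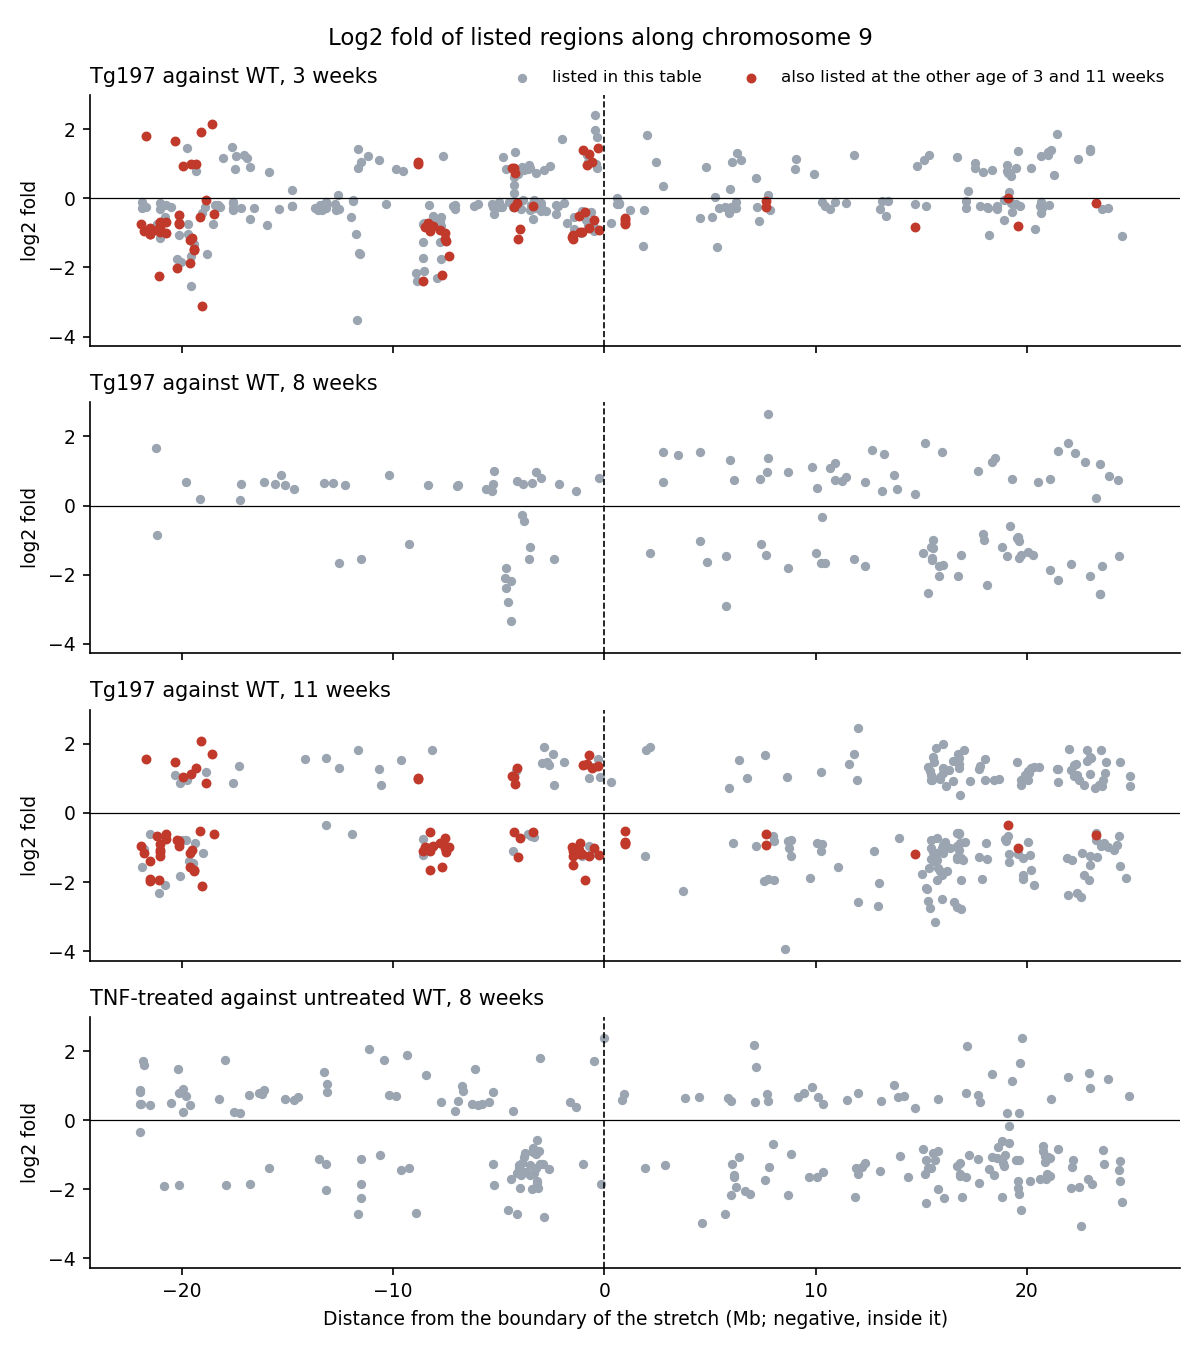
Log2 fold of each listed region (vertical) against its distance from the boundary of the stretch in Mb (horizontal; the dashed line is the boundary, negative distances lie inside), with a panel for each comparison. Red points are listed at both 3 and 11 weeks; they form blocks inside the stretch with none between 7.5 and 15 Mb, while of the losses inside the stretch 11 of 15 at 8 weeks and 34 of 53 with TNF lie within 5 Mb of the boundary.

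Tg197 libraries did not share the losses equally. At the 52 overlapping regions lost at 3 weeks, the median value was 61.2%, 61.5% and 39.8% of the WT mean in Tg197 libraries 1 to 3. Library 3 was the lowest in 41 of the 52, and it was below a 25% level of the WT mean in 11 of them, where libraries 1 and 2 were so in 0. At the 55 overlapping regions lost at 11 weeks the medians were 45.2%, 61.9% and 41.1%, and library 3 was the lowest in 35. Replicates of the ages are separate libraries, and a position number links nothing between ages.

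The difference between libraries changed along the stretch. The spans below were set after the blocks had been seen. Below 7.5 Mb, library 3 at 3 weeks was the lowest in 25 of 26 regions, with medians of 59.8%, 64.3% and 36.1% of the WT mean in libraries 1 to 3. From 15 to 20 Mb it was the lowest in 11 of 11, with medians of 66.7%, 57.9% and 30.6%. From 22.5 to 25 Mb it was the lowest in 4 of 10, and the medians were 57.4%, 51.9% and 52.8%, so the 3 libraries lay close together there. On the rest of the autosomes, library 3 was the lowest in 64 of 165 overlapping lost regions (38.8%).

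At 11 weeks the same spans also differed. Below 7.5 Mb library 3 was the lowest in 21 of 25 regions, with medians of 48.0%, 64.9% and 32.3% of the WT mean in libraries 1 to 3. From 22.5 to 25 Mb library 1 was the lowest in 7 of 12 and library 3 in 3, with medians of 36.3%, 58.6% and 40.1%. At the overlapping gained regions library 3 was again the farthest from WT, at 247% of the WT mean at 3 weeks (n = 17 regions), where libraries 1 and 2 were at 192% and 206%, and at 359% at 11 weeks (n = 19 regions), where they were at 216% and 178%. On the rest of the autosomes library 3 was also the lowest at most overlapping lost regions at 11 weeks, in 99 of 155 (63.9%). Leaving out Tg197 library 3 moved the log2 fold by over 1.5 times in 21 of the 52 overlapping losses at 3 weeks and in 9 of the 55 at 11 weeks, and in 0 of 17 and 3 of 19 overlapping gains.

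**Figure D3:**
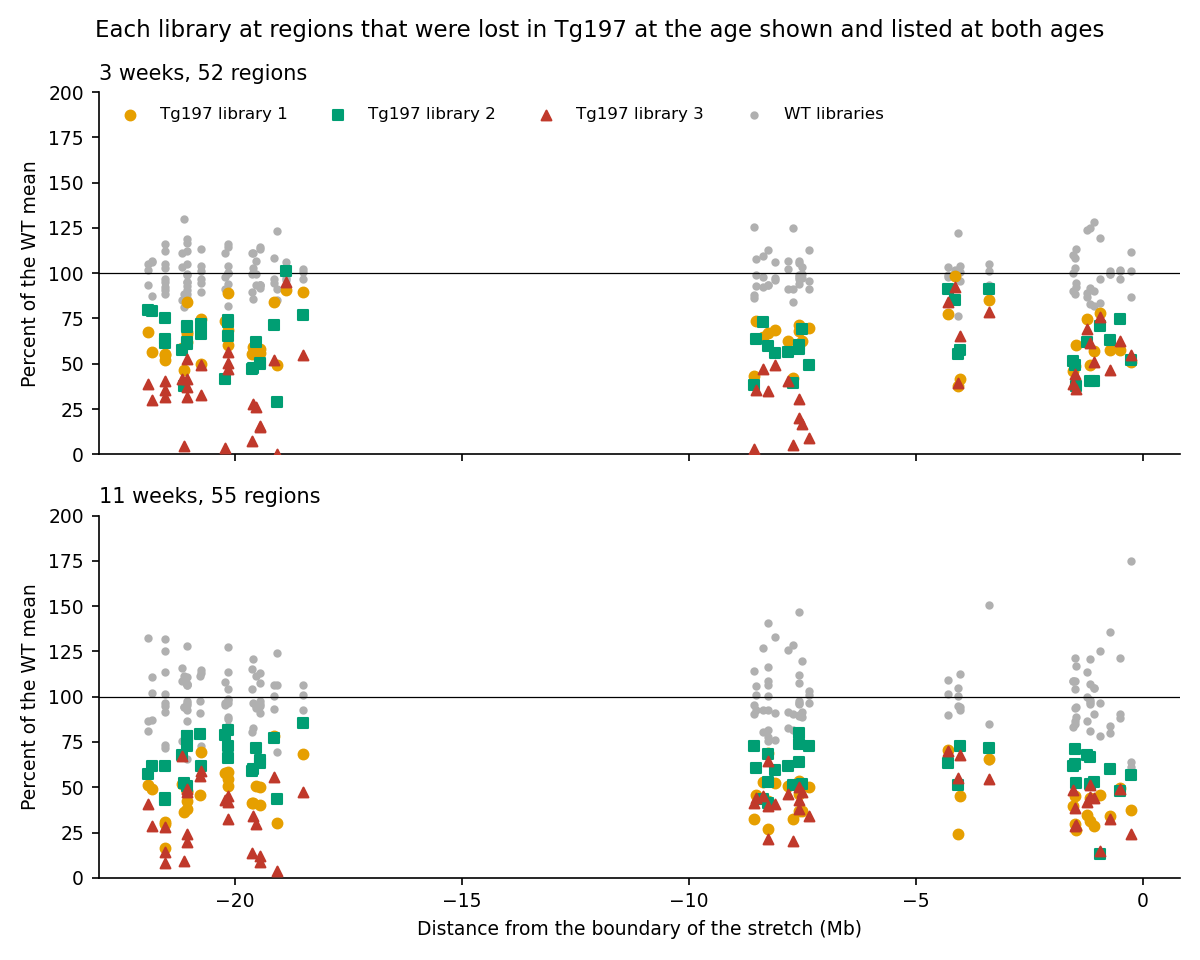
Value of each library as a percent of the WT mean (vertical) at the overlapping regions that were lost at 3 weeks (top, n = 52) and at 11 weeks (bottom, n = 55), against distance from the boundary in Mb. At 3 weeks Tg197 library 3 (red triangles) lies lowest in 25 of 26 regions below 7.5 Mb, while the 3 Tg197 libraries lie together near the boundary. WT libraries are grey.

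Of the signalling genes in the overlapping set, Tyk2 had 75.6, 112 and 79.1 normalized reads in Tg197 and 205, 154 and 247 in WT at 3 weeks, in a gene body region from 20923351 to 20924350. At 11 weeks the same interval had 31.1, 65.3 and 69.8 in Tg197 and 133, 121 and 128 in WT. Every Tg197 library lay below every WT library at both ages, and the log2 folds were -1.17 ± 0.16 and -1.27 ± 0.31 (standard error, n = 3 per group). A second region of the Tyk2 body, from 20925001, was gained at 3 weeks (0.71). Gucy1a2, a subunit gene of soluble guanylate cyclase, was lost at 2 overlapping places in its body. At the one from 3887351 to 3887950 it had 74.5, 60.3 and 6.92 normalized reads in Tg197 and 209, 131 and 142 in WT at 3 weeks, and the log2 folds at the 2 ages were -2.25 and -1.93, or -1.22 and -1.18 without Tg197 library 3 of each age. Pde4a, which encodes an enzyme that breaks down cyclic AMP, had log2 folds of -0.88 and -0.71 at the ages of 3 and 11 weeks.

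The caspase genes lay below 7.5 Mb. In the body of Casp12 (5364551 to 5365750), a member of the inflammatory caspase cluster, Tg197 had 127, 108 and 16.8 normalized reads and WT had 256, 206 and 229 at 3 weeks. At 11 weeks Tg197 had 40.7, 58.4 and 13.8 and WT had 103, 80.04 and 114. Library 3 was the lowest at both ages, and the groups did not overlap, with log2 folds of -1.87 ± 0.46 and -1.58 ± 0.45. Without Tg197 library 3 the folds were -0.96 and -0.99. Casp4, which encodes a caspase that senses bacterial lipopolysaccharide inside cells, was listed at 11 weeks only, at a log2 fold of -1.38 and with 4.79, 9.16 and 6.90 normalized reads in Tg197, against 19.0, 13.0 and 28.3 in WT.

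Among neuronal receptor genes, Gria4, a subunit gene of AMPA glutamate receptors, held a loss and a gain at both ages. Its lost region (4772101 to 4772600) had 45.4, 25.5 and 1.98 normalized reads in Tg197 and 68.6, 56.1 and 60.2 in WT at 3 weeks, and the log2 folds at the ages of 3 and 11 weeks were -2.02 and -0.78. Without Tg197 library 3 the fold at 3 weeks was -0.83. Its gained region, from 4667201, had folds of 1.65 and 1.47. Npsr1, the neuropeptide S receptor gene, likewise held regions of both directions at both ages. Its folds at 3 and 11 weeks were -0.98 and -1.19 at the region from 23924151, 1.41 and 1.39 at the region from 23990301, and -0.40 and -1.93 at the region from 24070801. So losses and gains stood at separate places within each of these genes.

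Gains of the set included genes of the matrix and of methylation. In Col5a3, which encodes a chain of type V collagen, the body region from 20604251 to 20605250 had 122, 111 and 103 normalized reads in Tg197 and 54.5, 72.4 and 55.7 in WT at 3 weeks. At 11 weeks it had 77.4, 45.8 and 120 in Tg197 and 36.7, 33.5 and 37.0 in WT, and the folds were 0.88 ± 0.14 and 1.05 ± 0.33. Dnmt1 had 109, 116 and 123 normalized reads in Tg197 and 62.0, 67.9 and 59.1 in WT at 3 weeks in the body region from 20727651 to 20728600. The overlapping region at 11 weeks had 112, 80.2 and 138 in Tg197 and 42.2, 57.7 and 57.5 in WT, and the folds were 0.87 ± 0.12 and 1.03 ± 0.26. A second part of the Dnmt1 body, from 20713651, was lost at both ages, at -0.25 and -0.55.

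**Figure D4:**
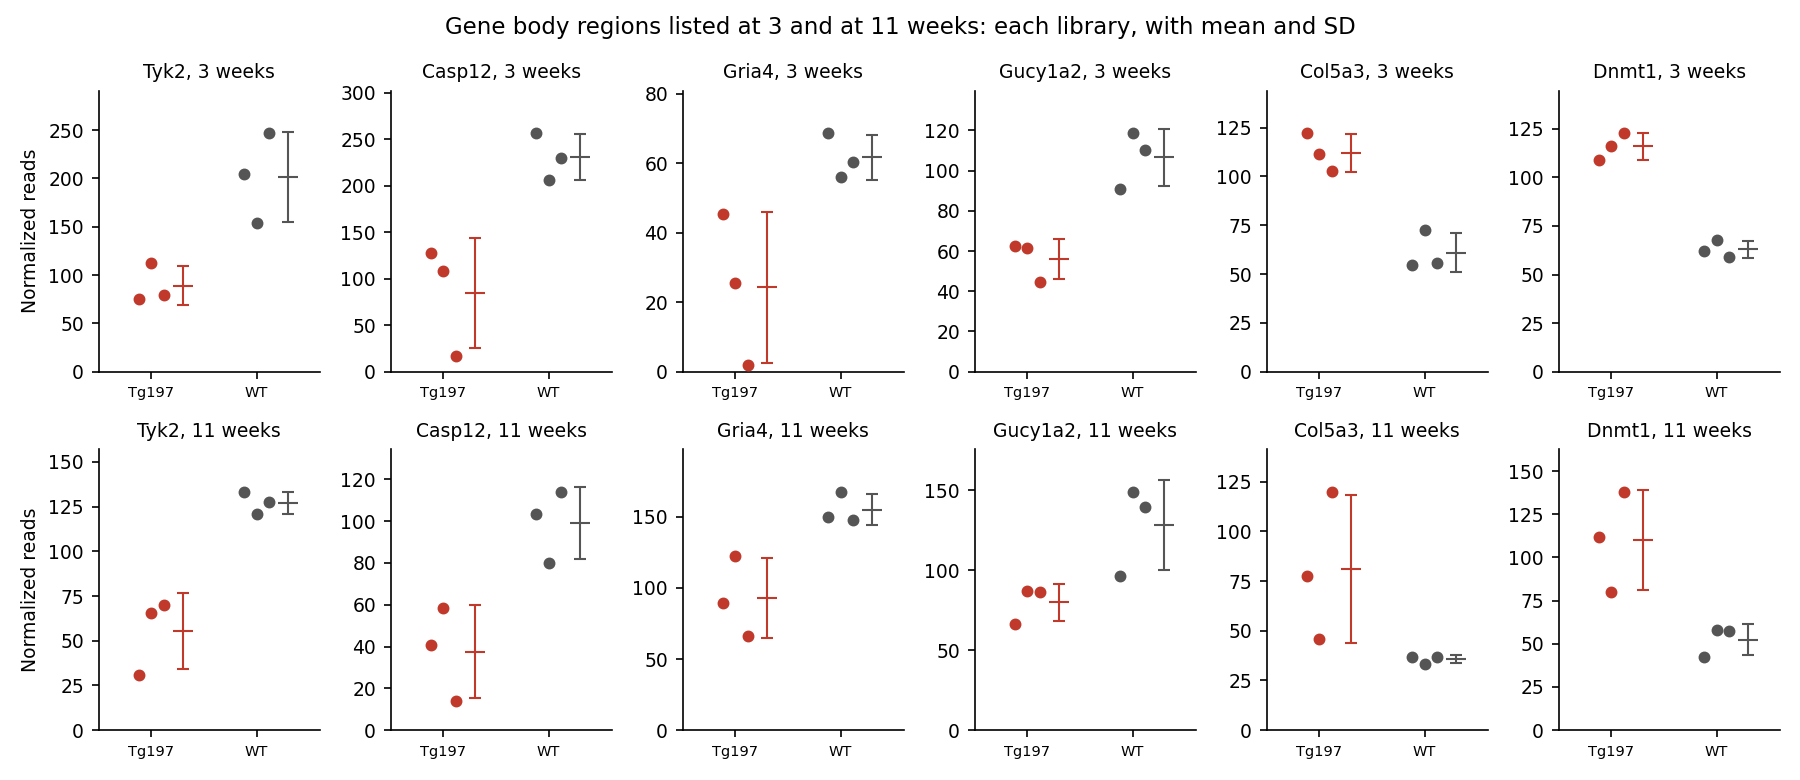
Normalized reads of each library (points), with mean and SD beside them, for 6 gene body regions listed at 3 weeks (top) and at 11 weeks (bottom), Tg197 left and WT right in each panel; n = 3 libraries per group. Tyk2, Casp12, Gria4 and Gucy1a2 are lower in every Tg197 library than in any WT library, and Col5a3 and Dnmt1 higher.

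The Fat3 region annotated to a promoter (16181501 to 16182500) may not lie at the start printed above. It had 92.9, 93.4 and 119 normalized reads in Tg197 and 41.3, 48.0 and 62.5 in WT at 3 weeks. At 11 weeks it had 50.3, 44.7 and 94.0 in Tg197 and 33.99, 34.4 and 21.4 in WT, and the fold was 1.00 at both ages. The groups did not overlap at either age. Further along Fat3, 2 other regions were lost at 3 weeks, with Tg197 library 3 at 0.99 normalized reads in both. Nearer the boundary, Dpy19l1, which encodes a mannosyltransferase, held a gain (1.27 and 1.68) and a loss (-0.85 and -1.25) at both ages, and its relative Dpy19l2, known for its part in shaping the sperm head, held a gain (1.06 and 1.30, or 0.81 at 11 weeks without Tg197 library 3) and losses at separate places (-0.41 at 3 weeks and -1.18 at 11 weeks).

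Other members were listed at 1 of the ages only. At 3 weeks the largest gain by fold lay in the body of Tbx20, which encodes a transcription factor of the heart, where Tg197 had 28.1, 31.1 and 37.6 normalized reads and WT had 3.76, 5.43 and 6.82 (24541751 to 24542650, log2 fold 2.41 ± 0.32). A second Tbx20 region had a fold of 1.96. The largest loss by fold at 3 weeks lay outside genes from 13264851 to 13265900, in the span with no overlapping regions, and had 6.48, 1.89 and 16.8 normalized reads in Tg197 and 98.6, 81.4 and 68.2 in WT (-3.51 ± 0.45). Of the 10 metalloproteinase genes of the cluster, 1 was listed for Tg197, namely Mmp8, the neutrophil collagenase, with 55.1, 51.9 and 47.5 normalized reads in Tg197 and 15.02, 23.5 and 28.4 in WT near its promoter at 3 weeks (1.21 ± 0.24). The body of Yap1, a co-activator held back by Hippo signalling, also gained at 3 weeks (1.24).

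At 11 weeks the promoter of 4930433N12Rik shown above had 16.0, 19.5 and 9.48 normalized reads in Tg197 and 28.6, 33.5 and 31.2 in WT (log2 fold -1.06 ± 0.33). The promoter region of Angptl6, which encodes a secreted angiopoietin-like protein, was lower too, with 39.1, 33.2 and 19.8 in Tg197 and 69.4, 64.2 and 62.4 in WT (-1.12 ± 0.29). In these regions every Tg197 library was below every WT library. Gains stood near the start of Icam4, an intercellular adhesion molecule gene, with 31.1, 24.1 and 23.3 in Tg197 and 8.16, 13.96 and 10.7 in WT (1.20 ± 0.33). They also stood near the start of Zfp809, whose product silences retroviral DNA in mouse embryonic stem cells, with 19.2, 18.3 and 15.5 in Tg197 and 5.44, 7.45 and 4.87 in WT (1.44 ± 0.39). Within Bmper, a gene of a secreted regulator of bone morphogenetic proteins, the fold was 1.47, and 3 regions of Bbs9, a gene of a protein complex of cilia, were gained.

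At 8 weeks the stretch was sparsely listed. It held 44 regions, fewer than most stretches of 25 Mb (rank 100 of 107 by number), and 2 of the 69 regions shared by the other ages overlapped one of them. Of the 44, 29 were gained and 15 lost in Tg197. The limma test was passed by 23 (52.3%), 12 gained and 11 lost, against 54% of all 11975 regions of the table (17.4% gained and 36.6% lost), and the groups did not overlap in 31 (70.5%), against 69.6%. A log2 fold of at least 1 was reached by 13 (29.5%), against 51.1% of the table, and 65.9% of the regions were gained, against 48.5%. The shares that passed and that did not overlap thus lay near those of the table, while large folds were fewer and gains more frequent, which was not tested. The number passing limma was 0 in the stretch and in the whole table when Tg197 library 1 or 3 or WT library 1 or 2 was left out, with between 11 and 21 of the 44 at an unadjusted p under 0.05, was 13 without WT library 3, and was 37 without Tg197 library 2. It was 0 with a pseudocount of 0.1, with 26 at an unadjusted p under 0.05, and 12 with limma voom on the recovered reads, 1 gained and 11 lost.

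The gained regions at 8 weeks were uneven between libraries. Set against the WT mean, their median log2 values were 0.99, 0.29 and 0.65 in the 3 Tg197 libraries, and in 11 of the 29 library 2 did not exceed the highest WT library. On the rest of the autosomes the medians were 1.02, 0.33 and 0.76. Beside these stand the X chromosome values of the same libraries, which have the same order, and their part was not tested. From 20 to 22.5 Mb, 5 regions were gained and 10 lost, and 0 of the gained and 6 of the lost passed the test. The gained ones lay at Icam5, an adhesion gene of neurons, Slc44a2, a choline transporter-like gene, Kank2, Epor and Zfp872. At the Zfp872 promoter shown above, Tg197 had 178, 90.7 and 80.9 normalized reads and WT had 59.2, 57.7 and 70.7 (log2 fold 0.80 ± 0.31, limma adjusted p = 0.0598, not passing), and the fold was 0.45 without Tg197 library 1.

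Losses at 8 weeks were steeper than gains and lay mostly in genes, in the stretch as in the rest of the table. Median log2 folds of losses and gains were -1.56 and 0.63, against -1.42 and 0.69 in the whole table. At genes lay 12 of the 15 losses, against 3638 of 6149 in the rest of the table. The median level of the losses was 6.56 normalized reads in Tg197 and 23.0 in WT, against 111 and 67.1 for the gained regions. In the rest of the table these levels were 10.5 and 31.0 for losses and 122 and 72.2 for gains. Near the start of Ubl5, which encodes a ubiquitin-like protein (20449851 to 20450450), capture fell to 2.65, 2.08 and 0 normalized reads in Tg197, against 15.2, 14.98 and 13.3 in WT (log2 fold -2.79 ± 0.60, limma adjusted p = 0.0428). At the region outside genes from 20566251 to 20567100 it fell to 0, 2.77 and 0 in Tg197, against 15.2, 15.7 and 13.3 in WT (-3.33 ± 0.63, limma adjusted p = 0.0428). These values amount to a few reads per library, so the folds depend on the added 1.

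Further losses at 8 weeks lay in Maml2 and Smarca4. In the body of Maml2, a Notch co-activator gene (13474251 to 13475200), Tg197 had 9.28, 12.5 and 13.2 normalized reads and WT had 53.3, 42.7 and 19.9 (-1.55 ± 0.44, limma adjusted p = 0.0428). In the body of Smarca4, which encodes the ATPase of a chromatin remodelling complex, 1 of 2 regions passed, with 9.28, 13.8 and 5.88 in Tg197 and 46.5, 32.2 and 15.5 in WT (-1.54 ± 0.52, limma adjusted p = 0.0444). In both, WT library 3 was the closest to Tg197. Gains that passed included 2 of the 3 regions in Cntn5, a gene of a neuronal adhesion molecule, at 0.90 and 0.59 (limma adjusted p = 0.0444 and 0.0435), neither of which passed under limma voom.

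With TNF the stretch held 51 gained and 53 lost regions (49% gained, against 33.8% of the whole table). The limma test was passed by 96 of the 104 (92.3%), 45 gained and 51 lost, against 93.8% of the table (29.8% gained and 64.1% lost), and the groups did not overlap in 100 (96.2%), against 95.8%. A log2 fold of at least 1 was reached by 59 (56.7%), against 60.9% of the table. The shares that passed, that did not overlap and that reached this fold therefore lay near those of the table. With limma voom on the recovered reads, 13 gained and 51 lost regions passed. No region of the TNF table overlapped one of the regions shared by 3 and 11 weeks.

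Most losses with TNF lay in the gene-dense block. From 20 to 22.5 Mb 32 of 34 regions were lost, 28 of them at 19 genes. The test was passed by 31 of the 32, against 10776 of the 11139 losses in the rest of the table. In each of the other blocks of the stretch between 1 and 5 regions were lost. Past the boundary 18 of 21 regions were lost from 40 to 42.5 Mb, but 1 of 3 from 25 to 27.5 Mb. The lost regions from 20 to 22.5 Mb had a median of 9.38 normalized reads in TNF-treated and 26.1 in untreated cells. Losses in the rest of the table had similar medians of 9.06 and 26.2. Of the lost regions from 20 to 22.5 Mb, 9 lay at promoters, 19 in gene bodies and 4 outside genes. Below 20 Mb lay 19 of the 53 losses with TNF, 122 of the 171 at 3 weeks and 56 of the 79 at 11 weeks, and the difference in position was not tested.

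Tyk2, Cdc37, Keap1 and Dock6 lay in this block, and their regions fell with TNF. At the promoter region of Tyk2 (20938051 to 20938750), TNF-treated libraries had 7.96 and 12.4 normalized reads and untreated libraries 23.1, 26.7 and 28.3 (-1.30 ± 0.36, limma adjusted p = 0.0109). In the body of Cdc37, which encodes a partner of the chaperone Hsp90, they had 11.0 and 13.6, against 42.8, 41.1 and 23.4 in untreated cells (-1.43 ± 0.35, limma adjusted p = 0.0109). At the promoter region of Keap1, the sensor that restrains the antioxidant factor Nrf2, they had 1.99 and 4.96, against 12.8, 13.0 and 9.83 (-1.60 ± 0.51, limma adjusted p = 0.0139). All of these lay clear of the untreated libraries. Dock6, a gene of a guanine nucleotide exchange factor, lost capture at 4 places in its body, with folds of -0.81, -0.82, -0.93 and -1.52, each with a limma adjusted p of 0.0109.

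Regions of Smarca4, Spc24 and Elavl3 in the same block also fell. Smarca4 had 9.95 and 9.92 normalized reads in TNF-treated and 31.7, 27.4 and 19.7 in untreated libraries (21470501 to 21471300, -1.29 ± 0.36, limma adjusted p = 0.0109), and a second region had a fold of -1.60. Near the start of Spc24, a kinetochore gene, the values were 8.96 and 3.72 in TNF-treated and 42.0, 35.0 and 12.3 in untreated libraries (-2.0 ± 0.56, limma adjusted p = 0.0109). In Elavl3, a gene of a neuronal RNA-binding protein, they were 5.97 and 4.96 in TNF-treated and 25.7, 31.2 and 17.2 in untreated libraries (-1.96 ± 0.41, limma adjusted p = 0.0109). The Spc24 loss no longer passed without TNF-treated library 3. At Spc24 and Elavl3 the lowest untreated library was library 3, as at Cdc37 and Smarca4.

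A gain in the same block lay at the start of Acp5, the gene of tartrate-resistant acid phosphatase, which marks osteoclasts. There the TNF-treated libraries had 11.95 and 12.4 normalized reads and the untreated ones 4.28, 0.76 and 4.91 (21934751 to 21935300, 1.79 ± 0.63, limma adjusted p = 0.0198). The gain no longer passed without TNF-treated library 1 or 3 or untreated library 2, and the fold without untreated library 2 was 1.24. A region further out from the same gene fell at a fold of -1.27 (limma adjusted p = 0.0112). At 4930433N12Rik, behind the promoter shown above, capture rose to 16.9 and 19.8 normalized reads in TNF-treated libraries, against 5.99, 5.33 and 4.91 in untreated ones (1.6 ± 0.44, limma adjusted p = 0.0109). At the body of Mmp1a, an interstitial collagenase gene, the values were 171 and 154 in TNF-treated and 122, 145 and 145 in untreated libraries (0.24, limma adjusted p = 0.111), which did not pass.

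The highest values of the stretch stood at its very start. The TNF table listed 5 very high regions between 3005151 and 3037200, of which 4 rose with TNF and 1 did not pass. The highest values were 225074 and 252803 in the TNF-treated libraries and 107576, 121312 and 192362 in the untreated ones at the region from 3011851 to 3013050 (log2 fold 0.81, limma adjusted p = 0.0109). The stretch held 447041 of the 1722036 recovered reads of TNF-treated library 1 and 405177 of the 1446888 of TNF-treated library 3. In untreated libraries 1 to 3 it held 250139 of 1594135, 320346 of 1858694 and 313465 of 1285306. The share in untreated library 3 thus lay close to that in TNF-treated library 1. Untreated library 3 was also nearest to the treated libraries at the region from 3011851. Among the regions shared by 3 and 11 weeks that were lost at 3 weeks, the highest Tg197 mean was 402 normalized reads, at the region from 4853001. The highest WT mean among them was 680.0, at another region, from 3941801.

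The 8-week and the TNF comparisons share their untreated WT libraries, so their values are set side by side and no agreement is read from them. Regions of both tables overlapped at 13 places. At Maml2 the log2 fold was -1.55 in Tg197 and -2.25 with TNF, at Ubl5 -2.79 and -2.61, and at the Col5a3 body region from 20589201 it was -2.18 and -1.70. Without Tg197 library 1 the Col5a3 fold in Tg197 was -1.32. At the 2 shared regions of Cntn5 it was 0.59 and 0.61, and 0.49 and 0.60. The TNF fold at Ubl5 was -4.01 without TNF-treated library 1 and -1.21 without TNF-treated library 3. The Col5a3 place lost here is not the one gained at 3 and 11 weeks, which lies at higher coordinates in the same gene.

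**Figure D5:**
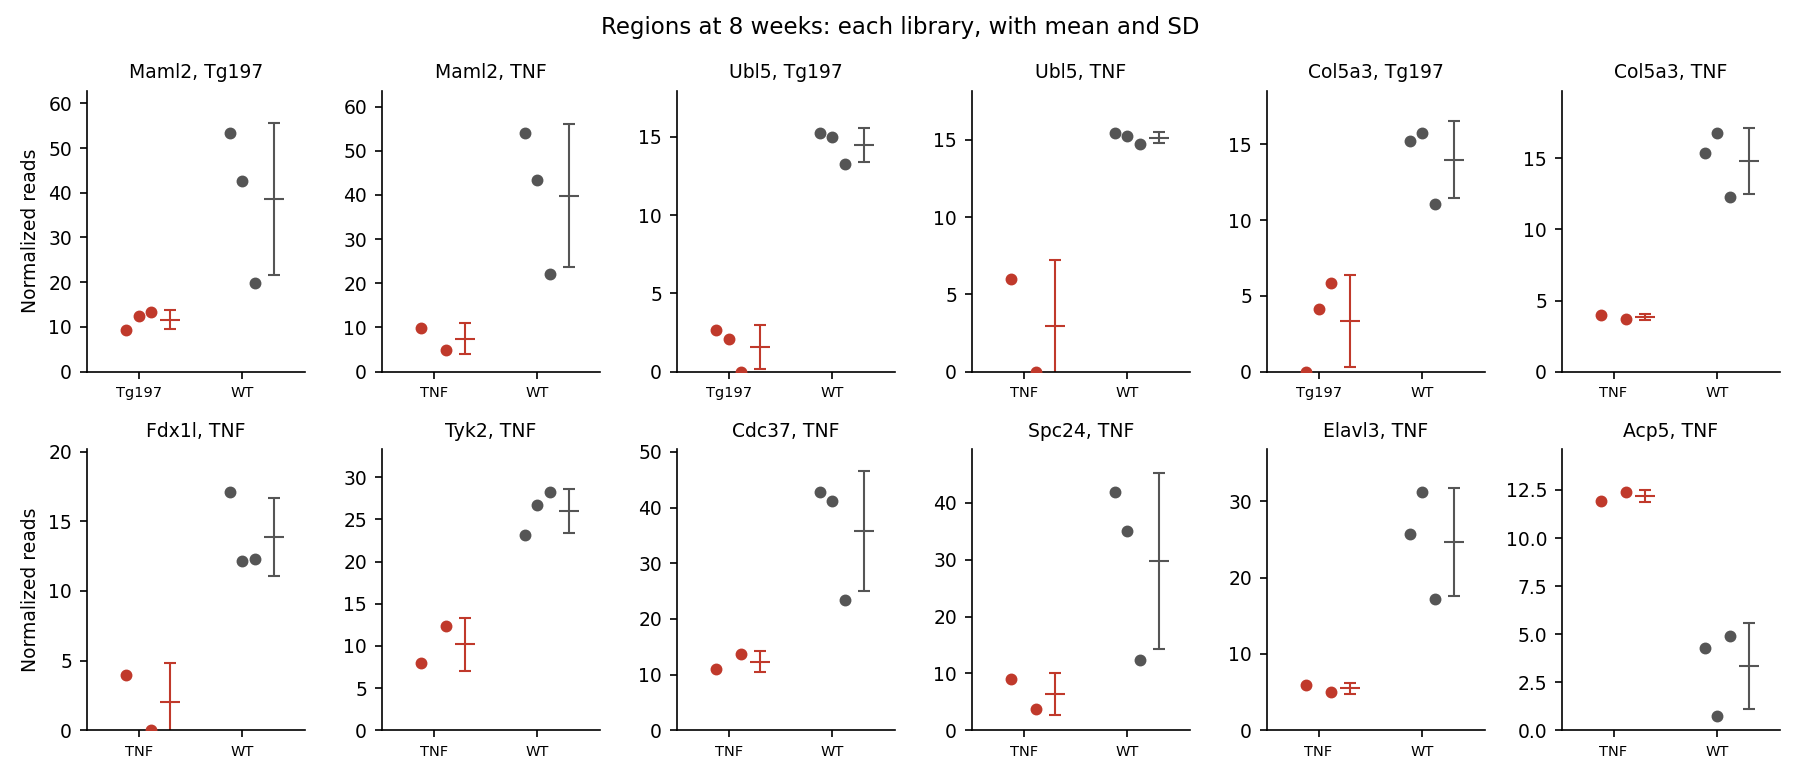
Normalized reads of each library (points), with mean and SD beside them. The top row shows Maml2, Ubl5 and Col5a3 in Tg197 against WT and in TNF-treated against untreated WT, and the bottom row shows 6 regions in TNF-treated against untreated WT; the TNF-treated group has n = 2 libraries and the other groups n = 3. Treated values lie below all WT values except at Acp5, where they lie above.

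Regions listed at all 3 ages of Tg197 were found at 2 places. In the body of Gucy1a2, near 3827451, Tg197 was lower at each age. It had 62.6, 61.3 and 44.5 normalized reads in Tg197 and 91.1, 119 and 110 in WT at 3 weeks, and 34.5, 58.1 and 44.1 in Tg197 and 83.7, 72.7 and 87.3 in WT at 8 weeks. At 11 weeks it had 66.2, 87.1 and 86.2 in Tg197 and 96.6, 149 and 139 in WT. The log2 folds were -0.92, -0.85 and -0.66, and the 8-week fold had a limma adjusted p of 0.0428. The place was named because all 3 ages list it, so this p is not free of that choice. The limma adjusted p was between 0.0606 and 0.134 without Tg197 library 1 or 3 or any WT library, and 0.0169 without Tg197 library 2. At the other place, outside genes near 5861901, the folds were -0.55, 0.20 and -0.52 at 3, 8 and 11 weeks, and the 8-week fold did not pass (limma adjusted p = 0.249).

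At the boundary, the last regions inside at 3 weeks started at 24698001 (log2 fold 1.47) and 24737151 (-0.92), and the first outside at 25319401 in Eepd1 (-0.71) and at 25585251 (0.02). At 11 weeks the last inside started at 24737151 (-1.22) and 24772001 (1.04), and the first outside at 25303401 in Eepd1 (0.89) and at 25966001 (-0.90). At 11 weeks the region from 24737151 had 74.2, 112 and 48.3 normalized reads in Tg197 and 345, 126 and 121 in WT, so WT library 1 stood far above the other WT libraries, and the fold without it was -0.73. The region from 25966001 at 11 weeks overlapped one listed at 3 weeks, so regions shared by the 2 ages ran on past the boundary.

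Of the 10 gene groups written down for the stretch, with earlier results of these data known, the one of neuronal receptors and adhesion held the most regions. At 3 weeks it had 4 gained and 12 lost regions at 5 of its 9 genes (median log2 fold -0.39, against -0.12 in the whole table), and at 11 weeks 5 gained and 5 lost (0.14, against 0.76). For these and the following groups, the whole tables passed in 54% of regions at 8 weeks (17.4% gained and 36.6% lost) and in 93.8% with TNF (29.8% gained and 64.1% lost). At 8 weeks 2 of its regions passed the test as gained and 1 as lost, of 4, and with TNF 5 as gained and 6 as lost, of 11. Genes of methylation and chromatin had 6 gained and 3 lost regions at 3 weeks (median 0.61), but 1 gained and 2 lost at 11 weeks (-0.55). At 8 weeks they had 2 lost regions (-1.37), of which 1 passed, and with TNF 2 lost regions that passed, all in Smarca4. Of inflammatory and stress signalling genes, 0 of 3 regions passed at 8 weeks, and with TNF 1 of 5 passed as gained and 4 as lost. Genes of growth and patterning signals had 4 gained and 3 lost regions at 3 weeks (1.06), and with TNF 3 lost ones that passed, all in Maml2.

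The remaining groups were small. The caspases and inhibitors of apoptosis had 1 lost region at 3 weeks and 2 at 11 weeks. Genes of extracellular matrix and endocytosis had 1 lost region that passed at 8 weeks and 3 of 4 with TNF. Genes of division, repair and cilia had 3 gained regions at 11 weeks, all in Bbs9, 1 lost region that passed at 8 weeks, and with TNF 3 lost and 1 gained that passed. Zinc finger genes had 1 region in each Tg197 table and 2 with TNF, at 5 genes in all, and no listed region was assigned to an olfactory receptor gene.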

How the data were processed

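DNA methylation was measured by capture of methylated fragments (MethylMiner kit, low-salt and high-salt elutions combined, per the labels' protocols) and paired-end sequencing in 21 libraries. The authors deposited 4 tables that list only regions selected for a difference, so an unlisted region has no value. Per the file headers, each region has group means (signal), log2 fold changes, p-values and adjusted p-values made by the authors, and the deposited per-library values are reads divided by a size factor. The submitters' processing notes name BWA, TopHat, TopHat2, Cufflinks, Cuffdiff and mm9 without roles, and no source used here says which program, test or filters made the comparisons. The tables were normalized separately and were tested separately. Their headers call the groups Treatment and Control, and Treatment was read as Tg197 or TNF-treated cells.

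Regions were taken on chromosome 9 below 25 Mb. The members and gene lists were chosen with earlier results of these data known. Folds and standard errors came from limma 3.58.1 with a mean trend (R 4.3.3) on log2(value + 1), which understates changes of low regions, fitted on each whole table with Benjamini-Hochberg adjustment and a threshold of 0.05, and checked on simulated data. Tables were handled in Python 3.11.15 with pandas 2.3.3. The value of 1 read was found for each library, and at least 99.98% of values came out as whole reads within 0.1, so limma voom on these reads was run as an alternative. Read numbers cover counting error only, and duplicates cannot be told from separate molecules. Identical TNF-treated libraries 1 and 2 were counted as 1. Libraries are numbered by their place in the files, which carry no replicate labels.

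Named regions were up to 12 listed at both 3 and 11 weeks with the smallest authors' p, the 5 largest gains and losses of each table, up to 5 promoters and up to 2 regions per gene list by authors' p, the 2 regions on either side of the boundary, and regions in 3 tables. Pde4a, Dock6, Dpy19l1, Dpy19l2, Kank2, Yap1, Keap1 with TNF, the very high regions at the start of the stretch and further regions of named genes fall outside this rule and were chosen after their values were seen. Other pseudocounts, a filter on low values, other boundaries and overlaps, a stricter authors' p and leaving out each library were tried. Of 71 listed gene symbols 63 matched RefSeq.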

Additional observations from a re-analysis of the deposited data

Results flagged for a closer look

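A region outside genes that was listed at all 3 ages had Tg197 below WT at the youngest and the oldest age and above it between them. Its log2 fold was -0.55 at 3 weeks (5861901 to 5862400), 0.20 at 8 weeks (5862251 to 5862750) and -0.52 at 11 weeks (5861651 to 5862450). It is given here because the Tg197 and WT libraries did not overlap at any age while the direction differed. At 8 weeks the values were 154, 146 and 159 normalized reads in Tg197 and 123, 133 and 141 in WT. The 8-week fold did not pass (limma adjusted p = 0.249) and was -0.02 under limma voom on the recovered reads. The difference between ages was not tested, since the tables were normalized separately, and the 3 intervals overlap only in part.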

How the results depend on the processing

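The number of regions passing at 8 weeks was 23, and it was 0 with a pseudocount of 0.1, 12 with limma voom on recovered reads, and between 0 and 37 when a library was left out. At 11 weeks it was 117, and between 0 and 109 when a library was left out. At 3 weeks (213) and with TNF (96) it stayed within 1.5 times under every alternative run, at 179 to 214 and at 64 to 101. The gains with TNF were less stable than this total: under limma voom 13 gained and 51 lost regions passed, against 45 and 51 in the main fit. With the boundary at 20 Mb the share of gained regions was 19.2% at 3 weeks, 84% at 8 weeks and 70.3% with TNF, against 26.3%, 65.9% and 49% at 25 Mb. The 69 regions shared by 3 and 11 weeks numbered between 46 and 85 under other overlaps, boundaries and authors' p. Alternatives chosen after seeing the data left 74 pairs moving the same way without any library, gave median log2 folds of the shared losses between -1.03 and -0.68 at 3 weeks and between -1.27 and -0.90 at 11 weeks, and a gained share of 32.4% at 3 weeks without the regions whose authors' p is below the counting bound. Named regions that changed sign were small in size: the region from 25585251 at 3 weeks lay between -0.01 and 0.04 when a Tg197 library was left out, and under limma voom Tmem123 was at -0.07 at 8 weeks and -0.06 with TNF, the region from 5862251 at -0.02 and Mmp1a at -0.03. The cause of these shifts was not tested. No paired analysis was possible because the deposited per-library values carry no replicate numbers. Where a group holds only a few reads, as at Ubl5 with 2.65, 2.08 and 0 normalized reads in Tg197 at 8 weeks, the depth limits the precision of the fold.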
